A study of Mus musculus with 21 samples.

Results

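The microRNAs described here are miR-146a and miR-146b, 2 hairpins whose products are known as feedback regulators of the transcription factor NF-kappaB. Their members were found by name in the deposited count table: 4 rows, the 5p and the 3p arm of each hairpin, of 1903 named mature microRNAs. Each of 21 libraries holds the small RNA of the left ventricle of a single C57BL/6J mouse. They form 4 groups: Sham (5 mice, sham surgery, no drug), TAC (5 mice, transverse aortic constriction, which overloads the left ventricle with pressure, no drug), TAC+PDE5A-I (5 mice, TAC and the PDE5A inhibitor sildenafil) and TAC+PDE9A-I (6 mice, TAC and the PDE9A inhibitor PF-04449613). Each drug was given for 4 weeks, beginning 1 week after surgery. Both enzymes break down cyclic GMP. No group received a drug without TAC. Neither the drug doses nor the ages of the mice are stated in the labels.

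NF-kappaB is switched on by Toll-like and interleukin-1 receptors, which signal through the adaptor proteins IRAK1 and TRAF6. It induces the transcription of miR-146a, and miR-146a in turn lowers IRAK1 and TRAF6, which closes a negative feedback loop in monocytes and macrophages. miR-146b has the same seed, the stretch of a microRNA that pairs with its targets, but is transcribed from its own gene and answers to other signals as well. In the heart, the miR-146 family is known from leukocytes, endothelial cells and fibroblasts, and also from cardiac muscle cells.

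The mature sequences are given first because the main result rests on how alike the 5p arms are. All 4 arms were matched by name in RefSeq (GRCm38.p6), and capitals mark the seed, bases 2 to 8.
miR-146a-5p: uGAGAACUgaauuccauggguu
miR-146b-5p: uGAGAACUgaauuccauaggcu
miR-146a-3p: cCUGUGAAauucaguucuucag
miR-146b-3p: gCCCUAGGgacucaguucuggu
Both 5p arms have 22 bases and differ at 2 of them, G18A and U21C (the base of miR-146a-5p, the position counted from 1 at the 5′ end, the base of miR-146b-5p). They have the same seed, which no other of the 1679 mature sequences in the RefSeq table has, and the same GC content, 9 of 22 bases (40.9%). The 3p arms differ from each other at 18 positions and share no seed. Reads that end before base 18 cannot be told apart between the 5p arms, and how the count table assigned such reads is not stated in the labels.

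The hairpins show where the arms lie in each precursor, with both arms in capitals.
mir-146a: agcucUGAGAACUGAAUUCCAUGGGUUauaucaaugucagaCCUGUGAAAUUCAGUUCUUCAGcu
mir-146b: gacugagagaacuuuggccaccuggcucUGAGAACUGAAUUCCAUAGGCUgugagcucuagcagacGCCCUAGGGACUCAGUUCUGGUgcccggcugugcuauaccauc
The first, gene Mir146, lies on the minus strand at chr11:43374397-43374461 (GRCm38.p6), and GENCODE M21 has no other gene there. The second, gene Mir146b, lies on the plus strand at chr19:46342762-46342870, inside the protein-coding gene Mfsd13a on the same strand and in none of its exons, hence in an intron.

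Total counts were 3766517 to 8497792 per library in Sham and TAC. They were 1205417 to 3969716 in TAC+PDE5A-I, of which replicates 3, 4 and 5 held fewer than 2000000, and 1546318 to 7532591 in TAC+PDE9A-I, of which replicate 5 alone did. These 4 libraries stood apart in depth, so every comparison was repeated without them. The libraries also differed in GC content, weighted by counts over the microRNAs with a RefSeq sequence. It was 44.6% to 45.0% in Sham, 44.9% to 45.1% in TAC, 46.0% to 48.6% in TAC+PDE5A-I and 44.7% to 47.2% in TAC+PDE9A-I. Levels are given as CPM, the count scaled to the library's total and its TMM factor. As a check of the tissue, 4 microRNAs of heart muscle (miR-499-5p, miR-208a-3p, miR-133a-3p and miR-1a-3p) were found in every group, with a summed level of 72305 to 268930 CPM per library, most of it miR-133a-3p. The tests are edgeR quasi-likelihood tests of all 4 groups over 561 microRNAs, with Benjamini-Hochberg adjusted p under 0.05 as the threshold. Both 5p arms passed the filter on low counts and neither 3p arm did.

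miR-146a-5p was the more abundant arm in all 21 libraries. In Sham it measured 459, 467, 483, 336 and 471 CPM in replicates 1 to 5, a mean of 443 ± 60.4 CPM (SD, n = 5). miR-146b-5p measured 91.0, 81.0, 76.3, 50.2 and 65.0 CPM in the same libraries, a mean of 72.7 ± 15.7 CPM (SD, n = 5). Replicate 4, the shallowest of the Sham libraries, was the lowest for both arms. By mean level the arms ranked 90 and 162 of the 682 microRNAs with a count in Sham, and 82 and 114 of 709 in TAC.

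**Figure D1:**
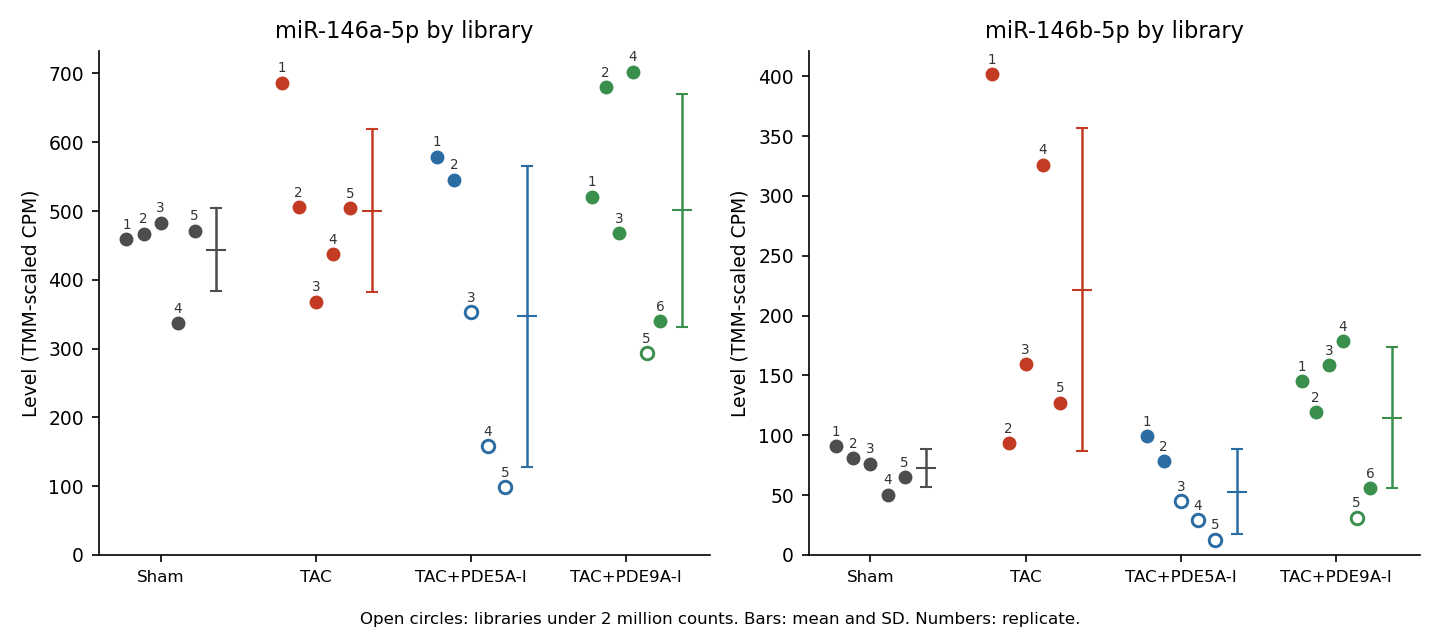
Levels of miR-146a-5p (left) and miR-146b-5p (right) in TMM-scaled CPM (y axis) in each library of the 4 groups (x axis), with the mean and SD beside each group; open circles are the 4 libraries of fewer than 2000000 counts. miR-146b-5p lies at 50.2 to 91.0 CPM in Sham and at 93.4 to 402 CPM in TAC, while the miR-146a-5p levels of these groups overlap.

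TAC against Sham asked how pressure overload changes the microRNAs of the heart. miR-146b-5p measured 402, 93.4, 159, 326 and 127 CPM in TAC replicates 1 to 5, a mean of 222 ± 135 CPM (SD, n = 5). Every TAC library lay above every Sham library, as it did for 8.38% of the tested microRNAs, although TAC replicate 2 exceeded the highest Sham library by little. The difference was 3.05-fold, a log2 fold change of 1.61 ± 0.52 (SE) with a 95% interval of 0.52 to 2.69, and it did not pass in edgeR (adjusted p = 0.104), a test in which 2.14% of microRNAs were called higher. miR-146a-5p measured 687, 506, 368, 437 and 504 CPM in TAC, a mean of 500 ± 119 CPM (SD, n = 5). Its groups overlapped and its log2 fold change was 0.17 ± 0.37 (interval -0.60 to 0.95, edgeR adjusted p = 0.973).

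The call on miR-146b-5p depended on the fit: of 20 alternatives, 15 did not pass and 5 did. Those that did not were each of 10 fits with 1 library left out, and the fits with RLE or total-count scaling, no filter, the replicate number or the ear tag range (adjusted p = 0.0787 to 0.137 over the last 5). It passed with DESeq2 (log2 1.62, adjusted p = 0.0269), which called 5.88% of microRNAs higher. It passed in edgeR with Sham and TAC alone (1.74, adjusted p = 0.00686), where 14.8% were called higher, and without the 4 libraries of fewer than 2000000 counts (1.58, adjusted p = 0.0166), where 6.97% were. None of those 4 libraries is of Sham or TAC, so that fit kept the data of both groups. Its value hardly moved, and its SE was 0.37 beside 0.52 in the fit of all libraries. GC offsets and voom quality weights also gave a call. By the range of the ear tag numbers, the 2 TAC mice with tags in the 100s had 93.4 and 402 CPM against 76.3 to 91.0 CPM in 3 Sham mice. In the 600s the TAC mice had 127 and 326 CPM and the Sham mice 50.2 and 65.0 CPM.

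TAC+PDE5A-I against TAC asked what sildenafil did to these microRNAs in the overloaded heart. miR-146b-5p measured 99.4, 78.2, 44.9, 29.0 and 12.7 CPM in TAC+PDE5A-I replicates 1 to 5, a mean of 52.8 ± 35.5 CPM (SD, n = 5). All but replicate 1 lay below the lowest TAC library. The level fell 4.15-fold, by 2.05 ± 0.53 on the log2 scale (SE, edgeR adjusted p = 0.0054), in a comparison in which 24.8% of microRNAs were called lower. miR-146a-5p measured 579, 545, 353, 158 and 98.5 CPM, a mean of 347 ± 218 CPM (SD, n = 5). Its replicates 1 and 2 lay above the TAC mean and its replicates 3, 4 and 5 below every TAC library. Its log2 fold change was -0.53 ± 0.37 (interval -1.30 to 0.25, edgeR adjusted p = 0.256).

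For both arms the low TAC+PDE5A-I libraries were the shallow ones, and the part of library depth in these levels was not tested apart from the fits that follow. The 3 shallow ones had ear tags in the 600s and the deeper 2 in the 500s, so depth and tag range cannot be told apart in this group. In the 500s, miR-146b-5p had 78.2 and 99.4 CPM against 159 CPM in 1 TAC mouse, and miR-146a-5p had 545 and 579 against 368 CPM. In the 600s, miR-146b-5p had 12.7 to 44.9 CPM against 127 and 326 CPM in TAC, and miR-146a-5p had 98.5 to 353 against 437 and 504 CPM. Without the 4 libraries of fewer than 2000000 counts, miR-146b-5p had a log2 fold change of -1.29 and did not pass (edgeR adjusted p = 0.0911, with 12.3% of microRNAs called lower), and miR-146a-5p turned to 0.19 (adjusted p = 0.665). With offsets for the GC content of each microRNA, which called 10.1% lower and 21.4% higher, miR-146b-5p was at -0.49 (adjusted p = 0.322) and miR-146a-5p at 1.03, above TAC (adjusted p = 0.0186).

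**Figure D2:**
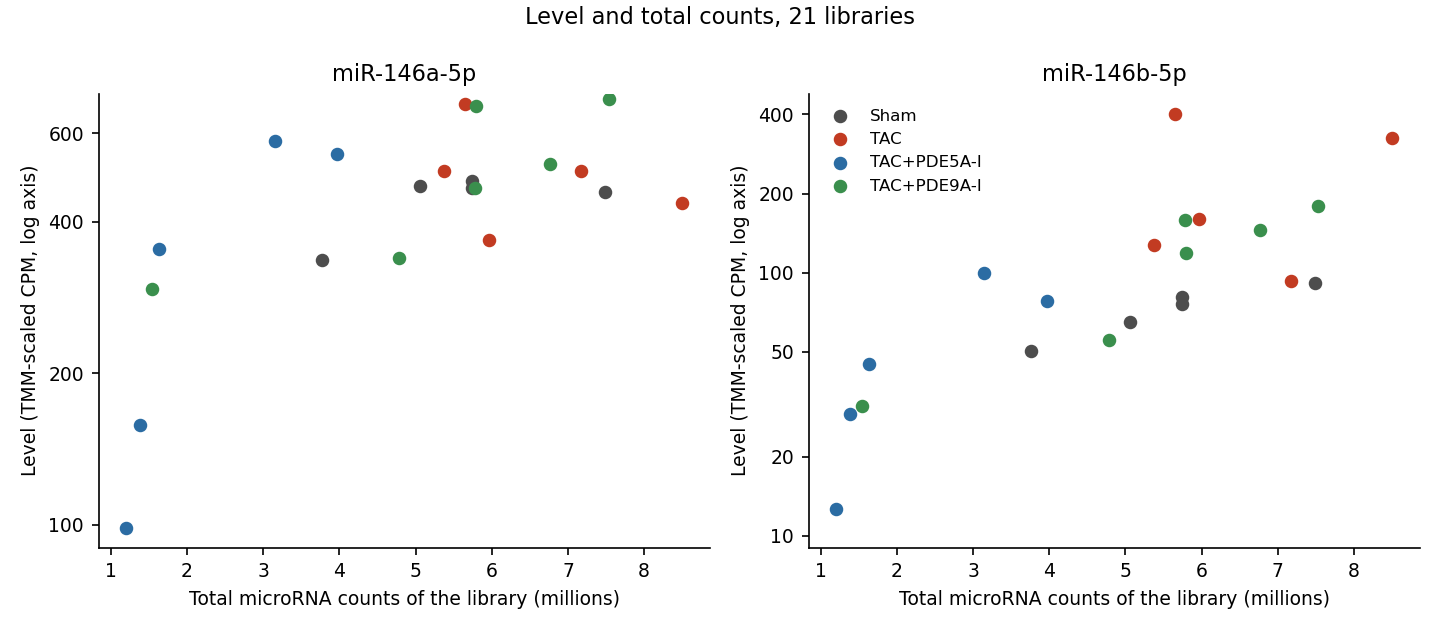
Level of each 5p arm (y axis, TMM-scaled CPM, log axis) against the total microRNA counts of the library (x axis), 1 point per library, coloured by group. The 4 libraries of fewer than 2000000 counts lie at 98.5 to 353 CPM for miR-146a-5p and at 12.7 to 44.9 CPM for miR-146b-5p.

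TAC+PDE9A-I against TAC asked the same of PF-04449613. miR-146b-5p measured 31.2 CPM in its lowest library (replicate 5), a median of 132 CPM and 179 CPM in its highest (replicate 4), with a mean of 115 ± 59.0 CPM (SD, n = 6). These values overlapped with TAC. Only replicate 5, the group's shallow library, lay below the Sham range, and the next lowest, replicate 6, had 55.6 CPM. The log2 fold change was -0.95 ± 0.49 (interval -1.96 to 0.07), with an unadjusted p of 0.0655 and an adjusted p of 0.991 in edgeR. Without the 4 shallow libraries it was -0.71 (edgeR adjusted p = 0.724). miR-146a-5p ranged from 294 to 703 CPM with a median of 494 CPM and a mean of 501 ± 169 CPM (SD, n = 6), and its log2 fold change was 0.0020 ± 0.35 (interval -0.74 to 0.74, adjusted p = 0.997). edgeR called 0% of all tested microRNAs in this comparison, with 16 at an unadjusted p under 0.05, and DESeq2 called 1, which was lower.

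By mean level, miR-146b-5p stood in the order TAC, TAC+PDE9A-I, Sham and TAC+PDE5A-I. No neighbours in this order passed the test for a difference: TAC+PDE9A-I against Sham had a log2 fold change of 0.66 ± 0.49 (interval -0.37 to 1.69, edgeR adjusted p = 0.841) and TAC+PDE5A-I against Sham had -0.45 ± 0.51 (interval -1.52 to 0.62, adjusted p = 0.510). For miR-146a-5p the order was TAC+PDE9A-I, TAC, Sham and TAC+PDE5A-I, and again no neighbours passed. Its log2 fold change against Sham was 0.18 ± 0.36 in TAC+PDE9A-I (adjusted p = 0.970) and -0.35 ± 0.37 in TAC+PDE5A-I (adjusted p = 0.470). Without the 4 shallow libraries the TAC+PDE5A-I values against Sham turned to 0.29 for miR-146b-5p (adjusted p = 0.740) and 0.34 for miR-146a-5p (adjusted p = 0.385). In edgeR 19.1% of microRNAs were called higher and 23.5% lower in TAC+PDE5A-I against Sham, and 1.25% higher and 0.713% lower in TAC+PDE9A-I against Sham.

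The 2 drugs, given for the same time at doses not stated, were also compared directly. miR-146b-5p was at a log2 fold change of -1.11 ± 0.50 in TAC+PDE5A-I against TAC+PDE9A-I (interval -2.15 to -0.06, edgeR adjusted p = 0.0904) and miR-146a-5p at -0.53 ± 0.36 (interval -1.28 to 0.22, adjusted p = 0.246). Neither passed, in a comparison in which 15.2% of microRNAs were called higher and 19.6% lower. Without the 4 shallow libraries miR-146b-5p was at -0.58 (adjusted p = 0.449). Leaving out 1 library at a time, it passed without TAC+PDE9A-I replicate 5 (-1.41, adjusted p = 0.0292), without TAC+PDE5A-I replicate 1 (-1.69, adjusted p = 0.0307) and without TAC+PDE5A-I replicate 2 (-1.45, adjusted p = 0.0488), and did not pass in the other 8 of these 11 fits. With GC offsets it turned to 0.17 (adjusted p = 0.778).

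**Figure D3:**
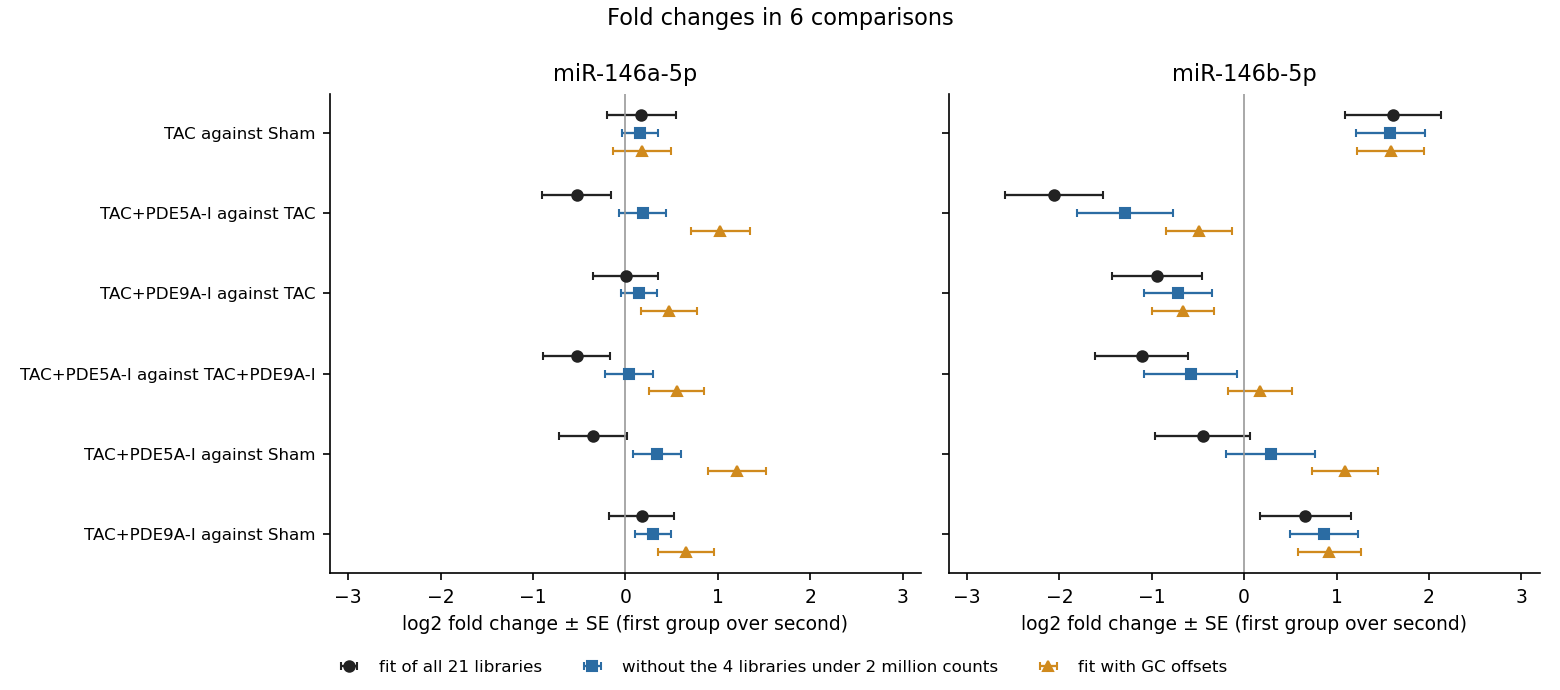
Log2 fold changes (x axis, ± SE, first group over second) of miR-146a-5p (left) and miR-146b-5p (right) in 6 comparisons (y axis), from the fit of all 21 libraries, the fit without the 4 libraries of fewer than 2000000 counts and the fit with GC offsets. TAC against Sham has about the same value in all 3 fits (1.58 to 1.61 for miR-146b-5p). None of the 4 libraries left out is of Sham or TAC, so leaving them out could hardly move that value. The values of TAC+PDE5A-I move, from -2.05 to -0.49 for miR-146b-5p against TAC.

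The ratio of the 5p arms inside each library needs no scaling between libraries, and both arms have the same length and GC content. For every 100 counts of miR-146a-5p, the Sham libraries held 19.8, 17.4, 15.8, 14.9 and 13.8 counts of miR-146b-5p. The TAC libraries held 58.5, 18.5, 43.3, 74.7 and 25.2. TAC replicate 2 lay within the Sham range and the other 4 TAC libraries above it. On the log2 scale the ratio was -2.62 ± 0.20 in Sham and -1.36 ± 0.84 in TAC (SD, n = 5 each). It rose 2.39-fold (difference of means 1.26 on the log2 scale, two-sided exact permutation p = 0.0159, adjusted p = 0.0476 over 6 comparisons), and the TAC library was the higher in 24 of 25 pairings of a TAC with a Sham mouse.

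Under sildenafil the libraries held 17.2, 14.4, 12.7, 18.4 and 12.9 counts of miR-146b-5p for every 100 of miR-146a-5p. These lie in or below the Sham range, and the deeper libraries, replicates 1 and 2, lie among the other 3. All 5 lie below the lowest TAC library, replicate 4 by so little that the pseudocount of 0.5 used for the log2 ratio reverses its order with TAC replicate 2. The log2 ratio was -2.73 ± 0.24 (SD, n = 5), 2.58-fold lower than in TAC (difference -1.37, two-sided exact permutation p = 0.0159, adjusted p = 0.0476). Against Sham the difference was -0.11 (exact permutation p = 0.444, adjusted p = 0.444). TAC against Sham and TAC+PDE5A-I against TAC use the same TAC libraries and gave the same p. Each passed the adjustment only because the other's p was equally small, so these 2 calls are not separate evidence. Replicates 1 and 2 alone gave a difference from TAC of -1.31, about the size with all 5. With 2 against 5 mice the smallest two-sided exact permutation p is 0.0952, so this comparison could not pass. These 2 libraries, at a GC content of 46.0%, also lay above every Sham and TAC library (at most 45.1%). Replicate 1 was shallower than every Sham and TAC library. The part of these differences in the ratio was not tested.

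With PF-04449613 the ratio was 10.6 counts per 100 in the lowest library (replicate 5), and 27.9, 17.5, 33.9, 25.4 and 16.4 in replicates 1, 2, 3, 4 and 6. Of these 6, 3 lay above the Sham range and all lay below the 3 highest TAC libraries. The log2 ratio was -2.29 ± 0.61 (SD, n = 6). It differed from TAC by -0.92 (exact permutation p = 0.0693, adjusted p = 0.139) and from Sham by 0.34 (p = 0.255, adjusted p = 0.306). TAC+PDE5A-I was at -0.44 relative to TAC+PDE9A-I (exact permutation p = 0.165, adjusted p = 0.247). None of these 3 passed. Replicate 5, the group's shallow library, held 50 counts of miR-146b-5p. Without it the group differed from TAC by -0.74 (exact permutation p = 0.127, adjusted p = 0.152) and from Sham by 0.52 (p = 0.0556, adjusted p = 0.0833). TAC+PDE5A-I was then at -0.63 relative to TAC+PDE9A-I (exact permutation p = 0.0397, adjusted p = 0.0794). Again none passed after adjustment.

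**Figure D4:**
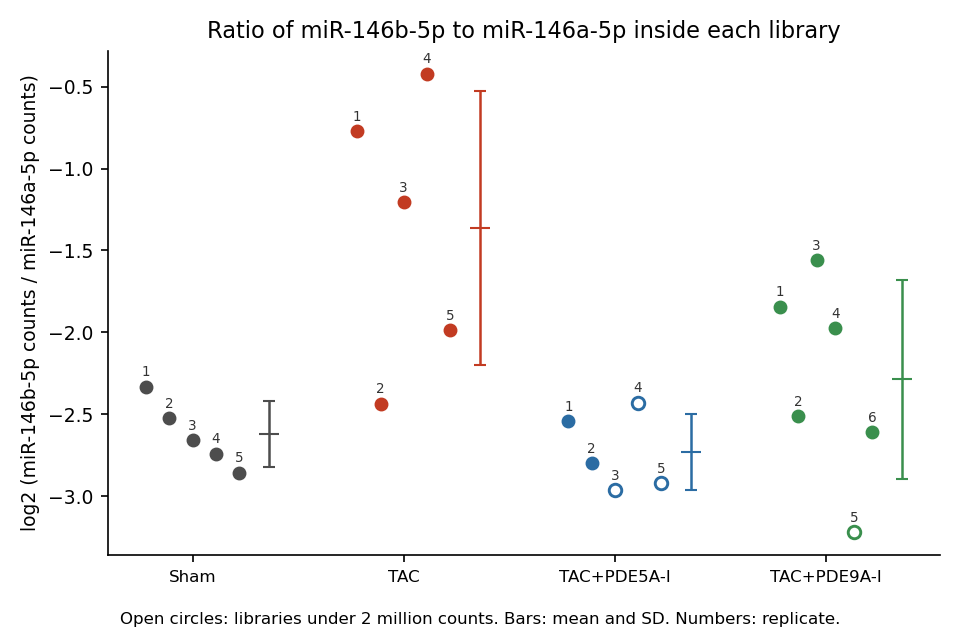
Log2 ratio of miR-146b-5p counts to miR-146a-5p counts (y axis) in each library of the 4 groups (x axis), with mean and SD; open circles are libraries of fewer than 2000000 counts. Sham lies at -2.86 to -2.33 and TAC+PDE5A-I at -2.96 to -2.43, while TAC spreads from -2.44 to -0.42.

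As a share of the counts of both 5p arms, miR-146b-5p made up 14.0% ± 1.72 in Sham, 29.1% ± 11.3 in TAC, 13.1% ± 1.92 in TAC+PDE5A-I (SD, n = 5 each) and 17.7% ± 5.79 in TAC+PDE9A-I (n = 6). Counting error was small beside the spread between TAC mice: in TAC replicate 4 the share was 42.8% with a 95% exact binomial interval of 41.5% to 44.0%. It was large in the shallowest library, TAC+PDE5A-I replicate 5, where 17 counts of miR-146b-5p gave 11.4% with an interval of 6.79% to 17.6%. Reads carry no molecular identifiers, so these intervals cover counting error only. The adjusted p of the ratio in TAC against Sham rose to 0.0952 when Sham replicate 2, 3, 4 or 5 or TAC replicate 1, 3, 4 or 5 was left out. The adjusted p of TAC+PDE5A-I against TAC rose to the same value without TAC replicate 1, 3, 4 or 5 or TAC+PDE5A-I replicate 1, 2, 3 or 5.

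The 5p arms together, which present 1 seed to the same targets, summed to 516 ± 72.8 CPM in Sham, 722 ± 222 CPM in TAC, 400 ± 253 CPM in TAC+PDE5A-I (SD, n = 5 each) and 615 ± 219 CPM in TAC+PDE9A-I (n = 6). The highest sum was 1088 CPM in TAC replicate 1 and the lowest 111 CPM in TAC+PDE5A-I replicate 5. The TAC libraries, at 527 to 1088 CPM, overlapped with the Sham libraries, at 387 to 559 CPM.

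The 3p arms, the passenger strands that are mostly discarded, were near the lower limit of the table, which has no value of 1. miR-146b-3p had 19, 19 and 10 counts in TAC replicates 2, 4 and 5 (2.56, 2.32 and 1.88 CPM) and was listed at 0 in the other 18 libraries. TAC replicate 1, the highest for miR-146b-5p, was among those at 0. miR-146a-3p had 8 counts in TAC+PDE9A-I replicate 2 (1.54 CPM) and was listed at 0 in the other 20 libraries. No 2 groups both had a library with counts of the same 3p arm, so the ratio of the arms of a hairpin was not compared between groups.

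Other microRNAs that textbook accounts tie to NF-kappaB or to innate immune signalling were taken as a list of 13, all of which were tested. In TAC against Sham none of them rose, 1 fell and 12 did not pass, where 2.14% of all tested microRNAs were called higher and 0.178% lower. The list's median log2 fold change was -0.12, beside -0.08 for all 561. The one that fell was miR-9-5p, which targets the NF-kappaB subunit p105, from 28.2 ± 8.01 to 12.2 ± 3.65 CPM (SD, n = 5 each, log2 -1.21 ± 0.31, edgeR adjusted p = 0.0429). miR-155-5p, which NF-kappaB induces in macrophages, measured 99.1 to 132 CPM in Sham and 68.1 to 95.1 CPM in TAC. Every TAC library was below every Sham library, as for 8.56% of microRNAs, and the log2 fold change of -0.46 ± 0.15 did not pass (adjusted p = 0.111). miR-21a-5p, also induced by inflammatory signals, had 2565 to 2961 CPM in Sham and 8762, 5376, 9659, 16757 and 5555 CPM in TAC replicates 1 to 5, and did not pass (log2 1.74 ± 0.72, adjusted p = 0.21). Its 2 lowest TAC libraries, replicates 2 and 5, were also the 2 lowest for miR-146b-5p. Without the 4 shallow libraries 1 of the 13 rose and 2 fell, where 6.97% of all microRNAs were called higher and 4.39% lower. In that fit miR-21a-5p rose (log2 1.72, edgeR adjusted p = 0.0112). The 2 that fell were miR-155-5p (-0.48, adjusted p = 0.0272) and miR-9-5p (-1.23, adjusted p = 0.0187).

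In TAC+PDE5A-I against TAC, 6 of the 13 fell, 3 rose and 4 did not pass (median log2 fold change -1.01, beside -0.31 for all 561), where 21.6% of all microRNAs were called higher and 24.8% lower. Those that fell included miR-21a-5p (log2 -4.12 ± 0.80, edgeR adjusted p = 0.0013), miR-301a-3p, which targets the NF-kappaB repressing factor (-3.04 ± 0.55, adjusted p = 0.000908), and miR-223-3p of myeloid cells (-2.37 ± 0.55, adjusted p = 0.00301). The other 3 that fell were miR-147-3p (-2.90, adjusted p = 0.00686), miR-15a-5p (-1.95, adjusted p = 0.0109) and miR-9-5p (-1.01, adjusted p = 0.017). miR-147-3p was near the lower limit of the table, at a mean of 8.02 CPM in TAC and 0.84 CPM in TAC+PDE5A-I, so the size of its fall is uncertain. Of the 6 that fell, miR-9-5p was also lower in TAC than in Sham. The 3 that rose were miR-125b-5p, a regulator of tumour necrosis factor (0.78 ± 0.20, adjusted p = 0.00506), let-7a-5p (0.55 ± 0.16, adjusted p = 0.0114) and miR-181b-5p, which targets importin alpha-3 (0.48 ± 0.18, adjusted p = 0.0333). Without the 4 shallow libraries 5 of the 13 fell and none rose, and the median was -0.19, beside 0 for all 660 microRNAs then tested. The fall that no longer passed was that of miR-9-5p (-0.77, edgeR adjusted p = 0.219). Of all 660, 12.3% were called lower and 41 were called higher in that fit. In TAC+PDE9A-I against TAC none of the 13 was called in edgeR, with or without those libraries. In TAC+PDE9A-I against Sham none was called, and 1 was higher without them, where 3.64% of all microRNAs were. Between the drugs, 6 of the 13 were lower in TAC+PDE5A-I, 1 was higher and 6 did not pass (median log2 -1.10, beside -0.25 for all 561), where 19.6% of all microRNAs were lower and 15.2% higher. Without the shallow libraries 5 were lower and none higher (median -0.31), where 12.7% of all were lower. Against Sham, 6 were lower in TAC+PDE5A-I, 2 were higher and 5 did not pass (median -1.31, beside -0.28 for all), where 23.5% of all were lower and 19.1% higher. Without the shallow libraries 5 were lower and 1 higher (median -0.25), where 13% of all were lower and 5.15% higher. The comparisons with TAC and with Sham share their TAC+PDE5A-I libraries, so these counts are not separate evidence.

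In whole myocardium, fewer cells of a type and less RNA per cell cannot be told apart. Of 5 leukocyte markers (miR-142a-3p, miR-142a-5p, miR-150-5p, miR-155-5p and miR-223-3p) none was called in TAC against Sham (0 higher and 0 lower in edgeR). Their median log2 fold change was 0.06, and the summed level was 2222 to 2674 CPM in Sham and 1397 to 2523 CPM in TAC. Without the 4 shallow libraries 1 of them, miR-155-5p, was called lower in TAC (log2 -0.48, edgeR adjusted p = 0.0272), where 4.39% of all microRNAs were. Both fibroblast markers rose in TAC against Sham, miR-199a-5p (log2 1.94) and miR-214-3p (1.80), with a sum of 224 to 286 CPM in Sham and 658 to 1207 CPM in TAC. Both were also called higher in TAC+PDE9A-I against Sham (1.65 and 1.91). Of all microRNAs, 2.14% were called higher in TAC against Sham and 1.25% in TAC+PDE9A-I against Sham. The 2 endothelial markers, at 32700 to 49225 CPM in Sham and 25780 to 42969 CPM in TAC, were not called in TAC against Sham, nor were the 4 of heart muscle.

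In TAC+PDE5A-I against TAC, where 24.8% of all microRNAs were called lower and 21.6% higher, markers of every cell type had calls. Of the fibroblast markers, miR-199a-5p fell (log2 -1.56, edgeR adjusted p = 0.00881) and miR-214-3p was at 0.89 and did not pass (adjusted p = 0.0772). Of the heart muscle markers, 3 fell: miR-1a-3p (-3.41, from a mean of 4197 to 395 CPM), miR-208a-3p (-3.31, from 475 to 46.9 CPM) and miR-499-5p (-2.37, from 591 to 113 CPM). The fourth, miR-133a-3p, rose (0.82, to 189580 CPM) and kept their sum high. Of the 5 leukocyte markers, 3 fell: miR-142a-3p (from 717 to 84.0 CPM, with 0 in its lowest library), miR-142a-5p (from 266 to 11.4 CPM) and miR-223-3p. Their summed level of 2180 to 3150 CPM was carried by miR-150-5p, which rose from 988 to 2368 CPM. miR-126a-5p of endothelium fell (-3.28) and miR-126a-3p did not pass (-1.12), at a sum of 999 to 15676 CPM. The red blood cell markers miR-144-3p (-4.84) and miR-451a (-1.97) both fell, and of the smooth muscle markers miR-143-3p fell (-2.37) and miR-145a-5p rose (0.67).

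Part of these marker calls ended without the 4 shallow libraries: the falls of miR-199a-5p, miR-499-5p and miR-451a (adjusted p = 0.117, 0.0524 and 0.334) and the rises of miR-133a-3p, miR-150-5p and miR-145a-5p (0.241, 0.144 and 0.163). The falls of miR-1a-3p, miR-208a-3p, miR-142a-3p, miR-142a-5p, miR-223-3p, miR-126a-5p, miR-143-3p and miR-144-3p still passed, where 12.3% of all microRNAs were called lower. No defining marker of these cell types was at 0 throughout a group, and their part in the levels of miR-146b-5p was not tested.

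The microRNAs whose log2 CPM followed miR-146b-5p most closely over the 16 libraries of Sham, TAC and TAC+PDE9A-I, of 302 compared, were miR-411-5p of the imprinted Dlk1-Dio3 cluster (Pearson's r = 0.942), miR-99a-5p (0.930) and miR-24-3p (0.921). Over all 21 libraries their values were 0.956, 0.929 and 0.935. In TAC, miR-411-5p measured 466, 262, 360, 469 and 295 CPM in replicates 1 to 5, high in replicates 1 and 4 and lowest in replicate 2, as miR-146b-5p was. Those closest to miR-146a-5p were miR-182-5p (0.690), miR-676-5p (0.688) and let-7i-5p (0.677). miR-146a-5p itself ranked 42 of 302 in likeness to miR-146b-5p (r = 0.644). These values describe the libraries, which share surgery group and depth, and carry no test.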

How the data were processed

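The authors deposited raw counts, whole numbers for each mature microRNA that sum to unequal totals. Per the submitters' processing notes, the tools were Bowtie 1.1.1, cutadapt 1.8, DESeq 1.26.0 and CASAVA 1.8.4, listed without roles. The genome build is not given in the sources used here. Libraries were made with the Illumina TruSeq small RNA kit from 500 ng of total RNA, per the labels' protocols. The 24055 blank lines of the table were skipped. No value of 1 occurs and the smallest above 0 is 2, so a listed 0 is not a measured absence.

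Counts were filtered with filterByExpr by group (561 of 1903 names) and scaled with TMM. They were fitted with the robust quasi-likelihood model of edgeR 4.0.16 in R 4.3.3, all 4 groups together (17 residual degrees of freedom). The code was run on simulated counts with equal spread in every group. That run does not cover the unequal spread of these groups. A called microRNA passed at 0.05 after Benjamini-Hochberg adjustment over all 561. The standard error of a fold change was derived from the edgeR test, as the size of the log2 fold change divided by the root of its F statistic. The 95% intervals were built from this standard error and are not adjusted. Neither is evidence apart from that test. The log2 ratio of miR-146b-5p to miR-146a-5p counts (pseudocount 0.5) was compared by two-sided exact permutation tests of the difference in means with SciPy 1.17.1, where 5 against 5 mice can reach p = 0.00794 and 6 against 5 p = 0.00433. A test of the 5p to 3p ratio was planned and could not be made.

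Alternatives were DESeq2 1.42.0, other scalings, no filter, the 2 groups alone, limma 3.58.1 voom with sample quality weights, GC offsets, the replicate number or ear tag range as a covariate, and each library left out. GC offsets used the RefSeq sequences of 487 of the 561 microRNAs (86.8%), which carry 32.0% to 65.0% of a library's counts. The fit without the 4 libraries of fewer than 2000000 counts was added after the data were seen.

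All 4 arms, the 13 NF-kappaB microRNAs and the cell type markers were named by rule, with the 3 microRNAs of at least 10 CPM most like each 5p arm. Values of listed microRNAs were to be given where called or of smallest p. This was followed for those called in TAC against Sham and in TAC+PDE5A-I against TAC, and not throughout elsewhere. Beyond this, miR-155-5p and miR-21a-5p in TAC were chosen after their values were seen. The members and lists were chosen with earlier results of these data known.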

Additional observations from a re-analysis of the deposited data

Results flagged for a closer look

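In Sham, replicate 4 lay apart from the other 4 libraries for miR-146a-5p, at 336 CPM against 459 to 483 CPM, a gap to its neighbour that made up most of the group's range. It was also the shallowest Sham library. It was 1 of 12 sets of values examined (each 5p arm and their ratio in each of 4 groups), and chance flags about 1 set in 20.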

How the results depend on the processing

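Of the 18 results (each 5p arm and their ratio in 6 comparisons), 268 recomputed values kept direction and side of the threshold, 20 lost a call, 14 gained one and 19 changed sign. Values below are log2 fold changes. miR-146b-5p in TAC against Sham passed in edgeR with GC offsets (1.58, adjusted p = 0.0134), with DESeq2 (1.62), in the 2 groups alone (1.74), with voom quality weights (1.24, adjusted p = 0.00923) and without the 4 shallow libraries (1.58), and did not pass with any 1 library left out (1.27 to 1.88, adjusted p = 0.0810 to 0.252). In TAC+PDE5A-I against TAC, its call was lost with GC offsets (-0.49) and without the 4 shallow libraries (-1.29), and held without any 1 library (-2.62 to -1.72). With GC offsets, miR-146a-5p was at 1.03 against TAC, 0.55 against TAC+PDE9A-I and 1.21 against Sham (adjusted p = 0.00646), and miR-146b-5p at 0.17 against TAC+PDE9A-I and 1.09 against Sham (adjusted p = 0.0246), all for TAC+PDE5A-I. Without the 4 shallow libraries the values that changed sign were, for TAC+PDE5A-I, miR-146a-5p at 0.19, 0.040 and 0.34 against TAC, TAC+PDE9A-I and Sham, and miR-146b-5p at 0.29 against Sham. Voom quality weights gave miR-146a-5p -0.99, -1.20 and -0.95 in these comparisons and miR-146b-5p -1.83 against TAC+PDE9A-I, all passing. Within TAC+PDE5A-I these weights were highest for the shallow replicates 3 and 4 (1.62 and 2) and lowest for the deeper replicates 1 and 2 (0.397 and 0.236). The shallow replicate 5 of that group had 0.71. The shallow replicate 5 of TAC+PDE9A-I had 0.0978, the lowest weight of all libraries. DESeq2 gave miR-146b-5p -1.30 against TAC+PDE9A-I, which passed (adjusted p = 0.0271), and single libraries left out moved it from -1.69 to -0.95. For miR-146a-5p in TAC+PDE9A-I against TAC, near 0, the sign changed with no filter (-0.059), the ear tag range (-0.28) and the 2 groups alone (-0.018), and single libraries left out gave -0.18 to 0.14. With the ear tag range it was -0.13 in TAC+PDE9A-I against Sham.

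The ratio kept its direction throughout: 1.02 to 1.53 in TAC against Sham and -1.63 to -1.13 in TAC+PDE5A-I against TAC with single libraries left out. Without the 4 shallow libraries these were 1.26 (adjusted p = 0.0952, its own p unchanged) and -1.31 (adjusted p = 0.19, with fewer mice). For all microRNAs, called counts ranged over the alternatives from 3 to 75 higher and 0 to 59 lower in TAC against Sham (12 and 1), 41 to 140 and 49 to 191 in TAC+PDE5A-I against TAC (121 and 139), 0 and 0 to 2 in TAC+PDE9A-I against TAC (0 and 0), 0 to 133 and 0 to 169 between the drugs (85 and 110), 34 to 134 and 57 to 177 in TAC+PDE5A-I against Sham (107 and 132), and 1 to 35 and 0 to 34 in TAC+PDE9A-I against Sham (7 and 4). Where no cause is shown by the construction of an alternative, the cause was not tested.

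The replicate numbers did not pair the mice: 7 of 30 same-numbered pairs had a correlation of deviations over 0.1 (-0.208 to 0.351), and 4 of 21 libraries correlated best with their own number. With the replicate number as a block, miR-146b-5p in TAC+PDE5A-I against TAC+PDE9A-I passed (-1.32, adjusted p = 0.0384), with 70 higher and 102 lower microRNAs there; no other result on these arms changed its call.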
